A study of Homo sapiens and Mus musculus with 66 samples.

Results

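Variable (V) gene segments are the short coding units from which antigen receptors are assembled, and here they were located relative to the nuclear lamina (NL) by lamin-B1 cTSA-seq, a proximity labelling method. In cTSA-seq an antibody to lamin-B1 directs the deposition of biotin on chromatin at or near the NL, and the biotinylated chromatin is pulled down with streptavidin and sequenced beside its input. The members were all genes of the GENCODE release 44 annotation mapped to hg19 whose symbol begins with IGHV, IGKV, IGLV, TRAV, TRBV or TRGV and whose gene type is IG_V_gene or TR_V_gene. The rule found 232 V segments among 64440 annotated genes on chromosomes 1 to 22, X and Y. By locus these were 47 IGHV, 44 IGKV, 37 IGLV, 45 TRAV, 36 TRBV and 9 TRGV segments. A further 14 segments, termed orphons, lay outside the 6 main loci. IGHV1-69 and IGHV1-69D lie at the same place on hg19, as do IGHV2-70 and IGHV2-70D. Each of these pairs thus counts a single stretch of hg19 more than once, in all counts below.

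The measurements are 10 lists of regions called at or near the NL, 1 for each condition. The first is from K562, a human leukemia cell line, and the other 9 are from HCT116, a human colorectal cancer cell line. The HCT116 lists cover bulk cells, titrations of 1000000, 200000 and 50000 cells (1e6, 200k and 50k), and 5 stages of the cell cycle. The stages 90m G1 and 180m G1 are cells held in nocodazole, a drug that arrests cells in mitosis, for 16 h per the labels, released for 90 or 180 min and sorted for a G1 content of DNA. The stages G1, S and G2 were sorted from asynchronous cultures that received no nocodazole. Stage and nocodazole treatment therefore cannot be told apart between the released and the asynchronous cells. Each condition has 2 pull-down and 2 input libraries, except 1e6, with 1 of each, and 200k and 50k, with 2 pull-down libraries and 1 input each. The deposited lists, per the paper intersected over replicates where a condition has them, hold starts and ends of regions in 100 kb windows. They hold neither signal nor read counts. Depth is therefore unknown, no spread between replicates can be given, and none of the differences below has a test or a replicate check. The lists hold no expression either, so the labelled cell lines could not be checked against marker genes.

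An immunoglobulin or T-cell receptor chain gene has no complete variable exon in the germline. In developing B and T cells the recombinase encoded by RAG1 and RAG2 cuts beside 1 V segment and 1 J segment, in some loci with a D segment between them, and the ends are joined. IGHV segments belong to the immunoglobulin heavy chain, IGKV and IGLV segments to the kappa and lambda light chains, and TRAV, TRBV and TRGV segments to the alpha, beta and gamma chains of the T-cell receptor. In non-lymphoid cells these loci are not rearranged and not used.

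The recombinase recognizes a signal sequence directly after each V segment, which consists of a heptamer, a spacer of 12 or 23 bases and a nonamer. These signals are shown because they define a V segment and because the spacer differs between loci. They were read from hg19 on the strand of the gene, with the heptamer and the nonamer in capitals. The segments are the first and the last of each locus along its chromosome.
IGHV6-1, chr14:106405570-106405608, minus strand: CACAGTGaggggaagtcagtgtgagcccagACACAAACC
IGKV4-1, chr2:89185672-89185699, plus strand: CACAGTGcttcagcctcgaACACAAACC
IGKV3D-7, chr2:90274238-90274265, plus strand: CACAGTGattcaacatgaaACAAAAACC
IGLV4-69, chr22:22385871-22385909, plus strand: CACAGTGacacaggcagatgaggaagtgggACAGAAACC
TRAV1-1, chr14:22090721-22090759, plus strand: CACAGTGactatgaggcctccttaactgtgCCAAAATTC
TRAV41, chr14:22789124-22789162, plus strand: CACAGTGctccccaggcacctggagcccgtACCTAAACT
TRBV2, chr7:142001256-142001294, plus strand: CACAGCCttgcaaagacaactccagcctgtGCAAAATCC
TRBV30, chr7:142510232-142510270, minus strand: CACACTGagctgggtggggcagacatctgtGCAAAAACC
TRGV11, chr7:38331178-38331216, minus strand: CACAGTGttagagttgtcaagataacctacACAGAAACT
For IGHV7-81, IGLV3-1 and TRGV1, the other ends of their loci, no signal passed the limit of 4 mismatches to CACAGTG and ACAAAAACC over 16 bases.

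Under that limit 210 of the 232 V segments (90.5%) had a signal that began within 15 bases of the gene end. The share was 0.875% of 64148 other annotated genes, which checks the label of the members. The search began at the annotated gene end, so a signal that starts before it would be missed. This also holds for the end segments above that had no signal. The spacer class was 12 bases in 44 of 44 IGKV segments with a signal and 23 bases in 45 of 45 IGHV, 41 of 41 TRAV and 7 of 7 TRGV segments with one. In IGLV the count was 30 of 31 and in TRBV 27 of 29. In the exceptions the best match began 8 or 10 bases after the gene end, with a spacer of 11 or 13 bases. The exceptions in TRBV, TRBV7-7 and TRBV7-8, have the nonamer TCACAAACC. It is also the nonamer of TRBV7-6, whose spacer is 23 bases. Whether the exceptions are signals with the short spacer was not tested. Median mismatches were 1 in IGKV and IGLV, 2 in IGHV and TRAV, and 4 in TRBV and TRGV. Spacer class did not separate called from uncalled loci. IGHV was called in every HCT116 list, and IGLV and TRAV were called in none of the 10 lists. All of them carried the spacer of 23 bases in nearly every segment that had a signal.

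Promoters of immunoglobulin V segments are known for an octamer that binds POU-domain factors. It is shown here for the end segments that carry it, in capitals, because it divides the immunoglobulin from the T-cell receptor loci in a way that the lamina calls do not.
IGHV7-81, chr14:107283310-107283339, minus strand: ccttcatgaatATGCAAATaactgagggga
IGLV4-69, chr22:22385283-22385312, plus strand: aagaggagcacATTTGCATgaagggcccct
IGLV3-1, chr22:23222826-23222855, plus strand: cctgactgctgATTTGCATcacgggccgct
Counting ATGCAAAT and its reverse complement ATTTGCAT, the window from 250 bases before to 50 bases after the gene start held an octamer in 40 of 47 IGHV segments (85.1%), 26 of 44 IGKV segments (59.1%) and 30 of 37 IGLV segments (81.1%). The count was 1 of 45 in TRAV, 1 of 36 in TRBV and 0 of 9 in TRGV, beside 2.25% of 64383 windows of the same length over all genes. All 40 IGHV octamers read ATGCAAAT in the direction of the gene, whereas the 26 in IGKV and the 30 in IGLV read ATTTGCAT.

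A V segment was counted as called in a list when the regions held 50% or more of its length. No segment was partly inside, so each was either at 0% or at 100% in every list. Of the 232 segments, 83 were called in K562, 109 in HCT116 bulk, 78 in 90m G1, 85 in 180m G1, 76 in G1, 79 in S, 82 in G2, 70 in 1e6, 89 in 200k and 78 in 50k. As percentages these counts ran from 30.2% in 1e6 to 47.0% in HCT116 bulk. The same share over all annotated genes was 21.5% in K562, 19.0% in HCT116 bulk, 17.8% in 90m G1, 10.8% in 180m G1, 11.7% in G1, 12.2% in S, 10.6% in G2, 12.2% in 1e6, 12.3% in 200k and 13.5% in 50k. The share of V segments was thus above the share of all genes in all 10 lists. In 90m G1 and in K562 this rested on a single locus. Without IGHV, 31 of 185 segments (16.8%) were called in 90m G1, below the 17.8% of all genes. Without IGKV, 39 of 188 segments were called in K562, below the 21.5% of all genes.

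Counts of segments are not counts of independent loci. All 232 segments lie in 55 windows of 100 kb, neighbouring windows are called together, and segments of 1 locus are not replicates. By windows, 18 of 55 (32.7%) were called in K562, where the regions covered 39.6% of the genome, so that by windows the V segments were below the coverage of the list. In HCT116 bulk 26 of 55 (47.3%) were called beside a coverage of 26.9%, in 90m G1 14 of 55 (25.5%) beside 17.0%, and in G1 18 of 55 (32.7%) beside 20.2%. The percentages of windows in the other 6 HCT116 lists ran from 32.7% to 41.8%, with coverages of at most 22.8%.

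**Figure D1:**
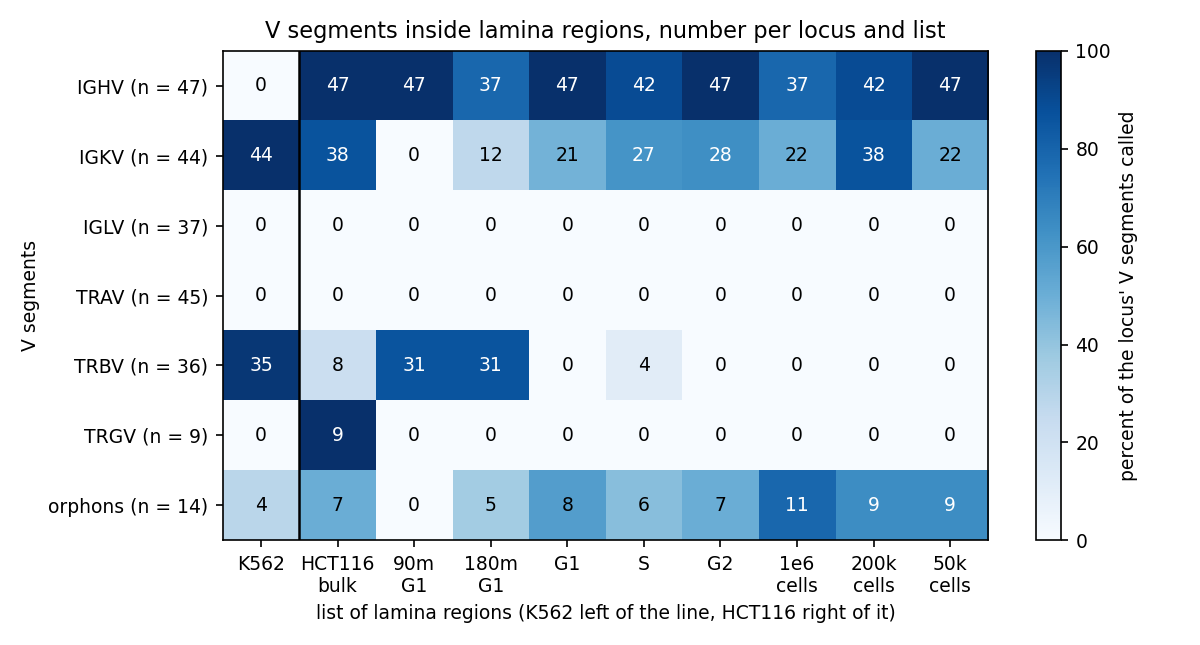
Number of V segments called in each list (columns) for each locus and for the orphons (rows), with the color giving the percent of the locus called on a scale from 0 to 100. IGLV and TRAV are at 0 in every list, IGHV is at 0 in K562 and between 37 and 47 of 47 in the HCT116 lists, and TRBV is at 31 of 36 in 90m G1 and 180m G1 and at 0 in G1.

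The totals hide loci that moved separately. IGHV, the variable part of the immunoglobulin heavy chain locus, was called in all 9 HCT116 lists and in none of its segments in K562. It spans chr14:106405611-107283280, in 9 windows, and its last segment ends 66260 bp before the end of the hg19 chromosome. All 47 segments were called in HCT116 bulk, 90m G1, G1, G2 and 50k. In S and 200k the count was 42, and in 180m G1 and 1e6 it was 37. The segments left out were always those nearest to the D and J segments. The 5 segments from IGHV6-1 to IGHV2-5 (chr14:106494134-106494597) were called in 5 HCT116 lists, the 5 from IGHV3-7 (chr14:106518400-106518932) to IGHV3-13 in 7, and the 37 from IGHV3-15 (chr14:106610313-106610852) to IGHV7-81 in all 9.

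The called region therefore had 1 fixed and 1 moving border. In every HCT116 list it ended at position 107300000. The last called window, chr14:107200001-107300000, is 10.5% assembly gap, and the 49540 bp between it and the end of the chromosome contain no sequence. Its start lay at 104500001 in 90m G1, 105600001 in HCT116 bulk, 106300001 in G1 and G2, 106400001 in 50k, 106500001 in S and 200k, and 106600001 in 180m G1 and 1e6. The region measured 2.8 Mb in 90m G1 and 1.0 Mb in G1, and it was shortest, at 0.7 Mb, in 180m G1 and 1e6. In K562 the nearest called region ended 6.81 Mb before the locus, and a stretch that reached to 0.206 Mb before IGHV6-1 was in the list of regions that the authors called depleted by both cTSA-seq and TSA-seq in K562. No IGHV segment was itself in that depleted list.

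The 37 IGHV segments from IGHV3-15 on were the only members called in all 9 HCT116 lists, and none of them was called in K562. Over all annotated genes 2.37% were called in all 9 HCT116 lists and 0.546%, or 352 genes, were called in all 9 and not in K562. These 37 segments share 7 windows and thus 1 stretch of chromosome 14.

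**Figure D2:**
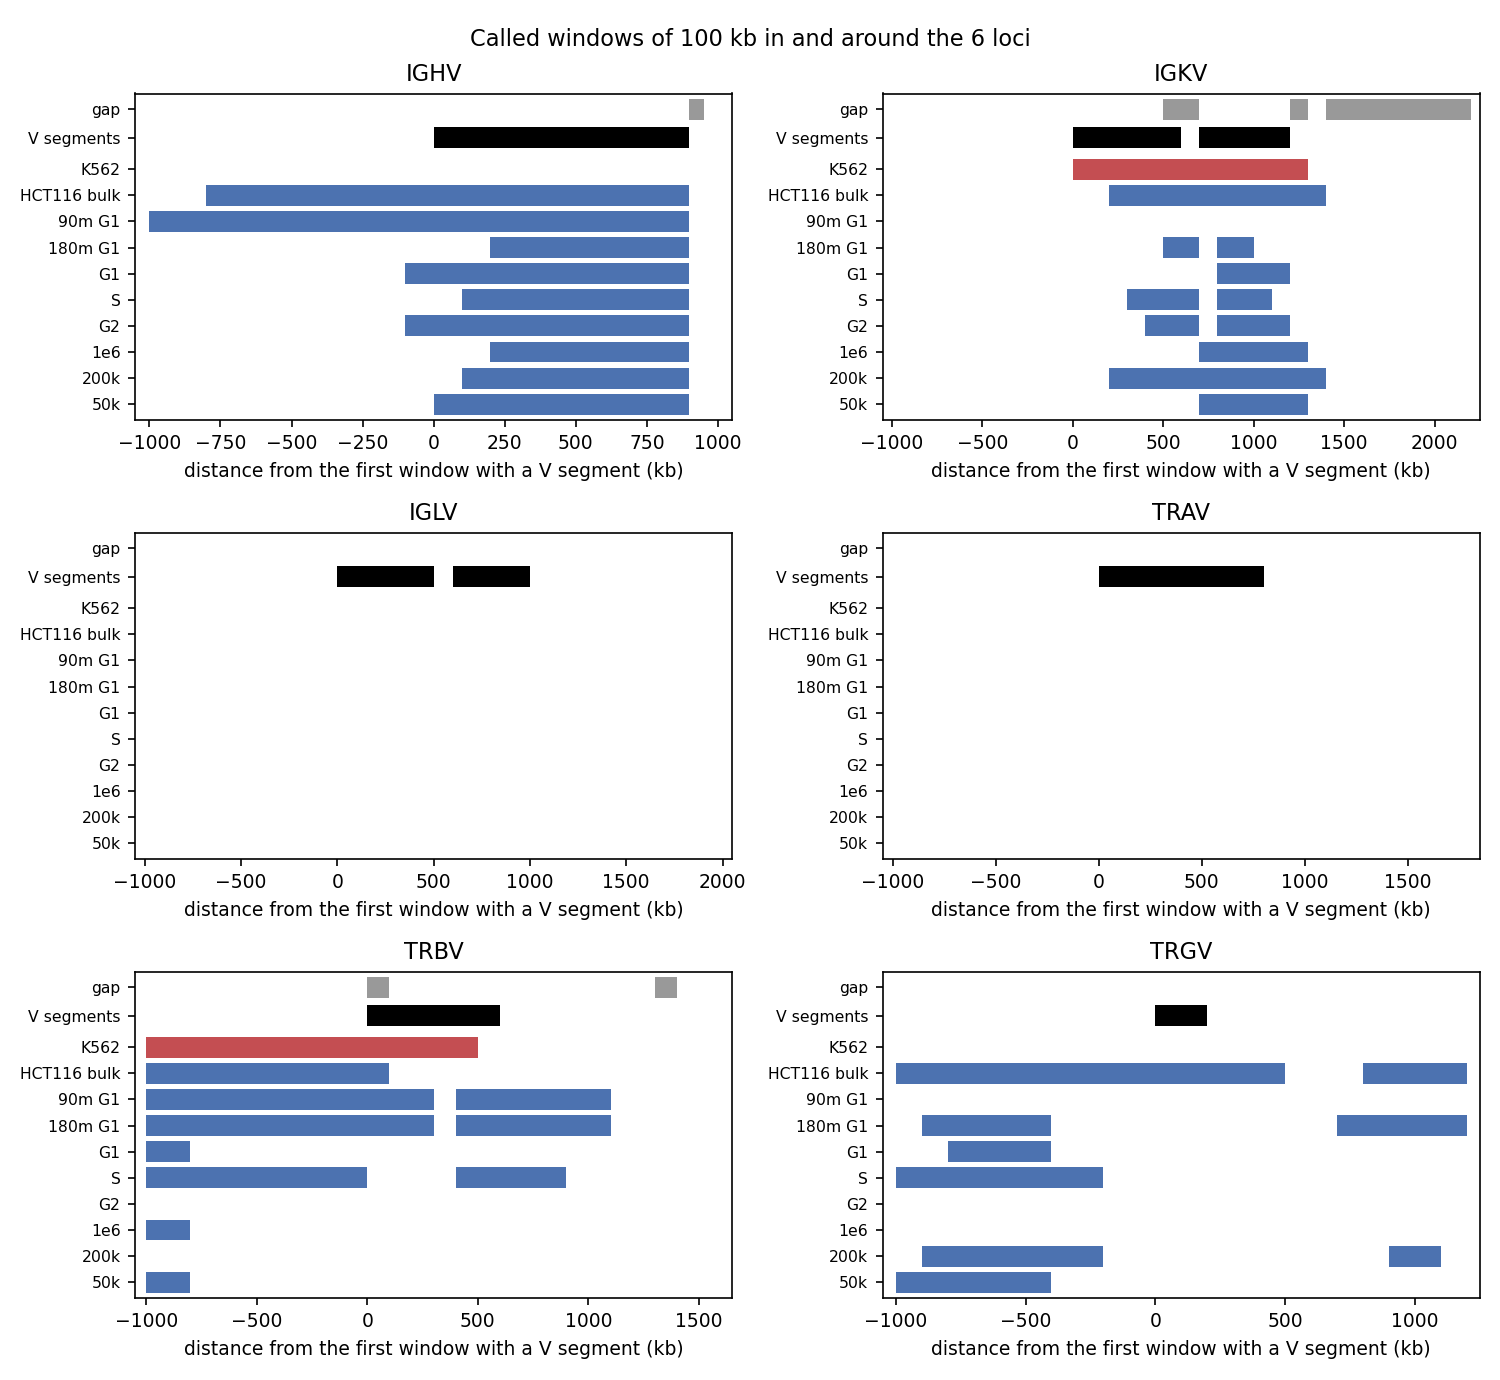
Called windows of 100 kb in the 10 lists (K562 in red, HCT116 in blue) within 1 Mb of each locus, by distance in kb from the first window that holds a V segment, with windows that hold V segments in black and windows of which at least 50% is assembly gap in grey. The IGHV region ends at the same window in all 9 HCT116 lists, the IGKV calls of 180m G1, S and G2 are interrupted by 1 uncalled window after the gap, and no window within 1 Mb of IGLV or TRAV is called.

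IGKV, the kappa light chain locus at chr2:89184913-90274235, showed a different arrangement, with a full call in K562 alone. All 44 segments were called in K562 and none in 90m G1. In the other HCT116 lists the count was 38 in HCT116 bulk and 200k, 28 in G2, 27 in S, 22 in 1e6 and 50k, 21 in G1 and 12 in 180m G1. No IGKV segment was called in all 9 HCT116 lists, and the 6 segments nearest to the J segments, from IGKV4-1 to IGKV1-8 (chr2:89291928-89292450), were called in K562 and in no HCT116 list. In 90m G1 the nearest regions ended 54.1 Mb before the locus and began 31.0 Mb after it.

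The kappa locus contains a proximal set of 22 segments and an inverted duplicate of it, the distal set, whose 22 segments carry a D in their names. The distal set was called more widely in every HCT116 list with a call. It had 22 of 22 segments called in HCT116 bulk, 1e6, 200k and 50k, 21 in G1 and G2, 16 in S and 10 in 180m G1. The proximal set had 16 in HCT116 bulk and 200k, 11 in S, 7 in G2, 2 in 180m G1, and none in G1, 1e6 and 50k. For 16 segments the annotation holds a counterpart in the other set, with a median identity of 99.5% over the aligned part and a range from 95.1% to 100%. All 16 distal copies and no proximal copy were called in 1e6 and 50k, and 15 distal copies and no proximal copy in G1. The reverse, a proximal copy called without its distal copy, was found for 1 pair in each of 180m G1, S and G2, namely IGKV2-40 (chr2:89629873-89630186) and IGKV2D-40 (chr2:89890601-89891303). How reads that match both copies were assigned is not stated beyond the aligner's default setting, and its part in these calls was not tested.

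**Figure D3:**
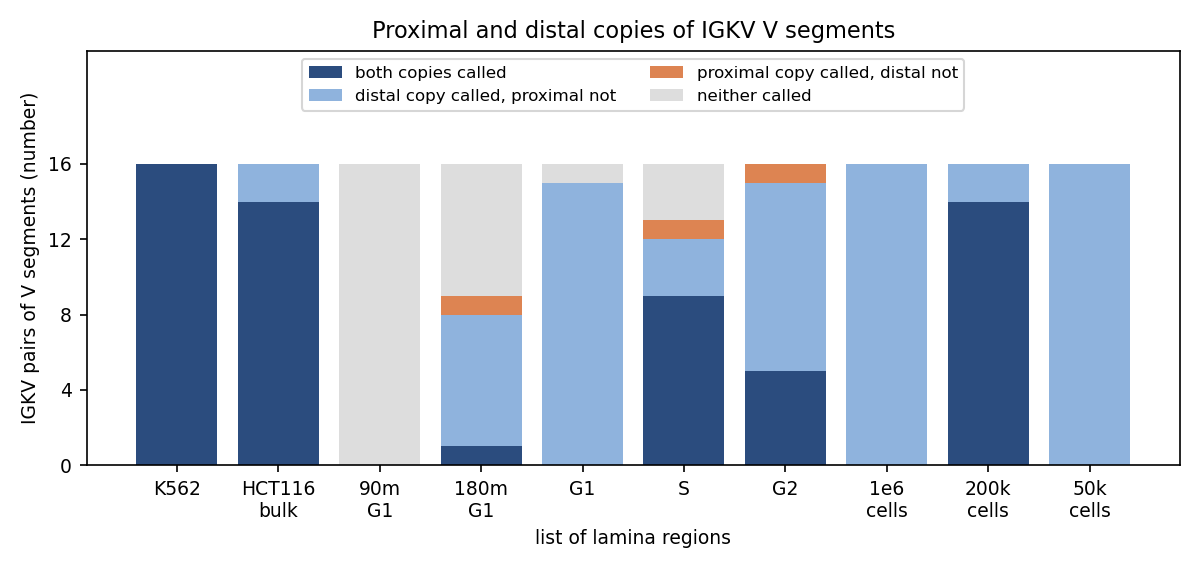
Number of the 16 IGKV pairs of proximal and distal copies by call in each list, as stacked bars that start at 0. All 16 pairs are called on both copies in K562, none on either copy in 90m G1, and all 16 on the distal copy alone in 1e6 and 50k.

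Between both sets hg19 has an assembly gap, and 18.4% of the span of the kappa locus, or 200 kb, is gap. The window chr2:89700001-89800000 contains no sequence at all, yet it lay inside a called region in K562, HCT116 bulk, 180m G1, S, G2 and 200k. It holds no V segment and adds to none of the counts above. The neighbouring window, which holds IGKV1-39 and IGKV2-40, is 69.6% gap, and the 2 proximal segments called in 180m G1 were these. On the other side of the gap the window chr2:89800001-89900000, which is 30.4% gap and holds IGKV2D-40, was called in K562, HCT116 bulk, 1e6, 200k and 50k. It was left out in 180m G1, S and G2 between called windows, so that the call was in 2 parts in those lists.

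TRBV, the beta chain locus at chr7:142000747-142511084, was the locus with the largest difference between stages. Of its 36 segments, 31 were called in 90m G1 and the same number in 180m G1, 4 in S and none in G1 and G2. HCT116 bulk had 8, the titrations of 1e6, 200k and 50k had none, and K562 had 35. In 90m G1 and 180m G1 the calls left out the same 5 segments, from TRBV19 (chr7:142326363-142327046) to TRBV25-1, which share the window chr7:142300001-142400000, and no HCT116 list called them. In 90m G1 the segments up to TRBV6-4 (chr7:142250703-142251158) lay in a region of 7.0 Mb, and in 180m G1 in a region of 1.6 Mb. A second region of 0.7 Mb with the same borders in both lists held the 4 segments from TRBV27 to TRBV30 (chr7:142510271-142511084).

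The S list called these last 4 segments as well, in a region of 0.5 Mb. In HCT116 bulk the call covered the other end of the locus, from TRBV2 to TRBV7-8 (chr7:142099455-142099977), and stopped before TRBV6-9. In G1, 1e6 and 50k the nearest region ended 0.801 Mb before the locus, in G2 it lay 1.0 Mb away and in 200k 2.09 Mb. The uncalled window chr7:142300001-142400000 is 26.2% gap and the called window before it 23.8%, and 50.0% of the first window of the locus is gap. TRBV30, which sits beyond the beta constant genes in inverted orientation, was the single segment outside the K562 call.

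TRGV, the gamma chain locus at chr7:38331217-38407770, was called as a whole in HCT116 bulk, in a region of 1.5 Mb, and in no other list. Its 9 segments share 2 windows, so this is 1 event. The nearest region was 0.231 Mb away in S and 200k, 0.431 Mb in 180m G1 and G1, and 1.13 Mb in K562. In 90m G1 it was 5.93 Mb away.

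IGLV and TRAV were not called in any of the 10 lists. Together these are 82 of the 85 members that no list called, the remaining 3 being orphons. Over all annotated genes 58.2% were called in none of the lists, against 36.6% of the 232 members. IGLV, the lambda light chain locus at chr22:22385332-23223576, lies on a chromosome with few calls of any kind, from 0 regions in 180m G1 to 3 in G1 and 1e6, and the nearest region was 5.39 Mb away or farther in each list that had one. TRAV, the alpha chain locus at chr14:22089991-22789123, had its nearest region 1.39 to 2.51 Mb away in the lists other than 90m G1, in which it was 55.5 Mb away. No window within 1 Mb of either locus was called. Of all 232 members 4 (1.72%) were in the K562 depleted list, which held 41.9% of all genes: IGLV4-69, the first lambda segment, and 3 orphons.

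Orphons are V segments copied to places from which they cannot take part in receptor assembly. Of the 14, 11 belong to IGHV and lie on chromosomes 15, 16 and 21, 2 to IGKV and 1 to TRBV. The 3 light chain and beta orphons were called in no list. Of the 11 IGHV orphons 4 were called in K562, 7 in HCT116 bulk, 0 in 90m G1, 5 in 180m G1, 8 in G1, 6 in S, 7 in G2, 11 in 1e6 and 9 in both 200k and 50k. The 4 orphons of chromosome 15 were called in K562 and not in HCT116 bulk, whereas the 6 of chromosome 16 were called in HCT116 bulk and not in K562. In 90m G1, in which all 47 IGHV segments of the main locus were called, no IGHV orphon was.

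K562 and HCT116 bulk are both unsorted cultures. Called in both were 46 of 232 (19.8%), namely 38 IGKV and 8 TRBV segments, beside 9.62% of all genes. Called in K562 and not in HCT116 bulk were 37 (27 TRBV, 6 IGKV and 4 orphons), beside 11.9% of all genes. In the opposite direction there were 63 (47 IGHV, 9 TRGV and 7 orphons), beside 9.36% of all genes. As percentages of the members these were 15.9% and 27.2%. No member was called in all 10 lists. In the published TSA-seq list of K562, made by the method from which cTSA-seq was derived, none of the 232 members was called, beside 16.3% of all genes, although that list also covers 33.9% of the genome. Its nearest region to TRBV ended 746 bp before TRBV2, and that to IGKV lay 1.23 Mb away. The 83 members called by cTSA-seq in K562 were thus all outside the TSA-seq list. That list comes from another study, which used a different lamin-B antibody, so method, antibody and study cannot be told apart here. The paper also made TSA-seq with the cTSA-seq antibody, which was not used here. It reports that most regions called by cTSA-seq alone were the same in both comparisons.

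The only locus within 5 Mb of a chromosome end was IGHV, and the comparison of chromosome-end with inner loci is therefore a comparison of 1 locus with 5 and the orphons. In 90m G1 47 of 47 chromosome-end segments and 31 of 185 inner segments (16.8%) were called. Over all annotated genes 57.0% of those within 5 Mb of an end and 12.9% of those farther away were called in that list. In G1 the members stood at 47 of 47 and 29 of 185 (15.7%), while over all genes the shares were 14.8% near the ends and 11.3% elsewhere. In HCT116 bulk the members stood at 47 of 47 and 62 of 185 (33.5%), and all genes at 28.5% and 17.8%. In K562 the order was the other way round, with 0 of 47 and 83 of 185 (44.9%), and for all genes 7.11% and 23.3%.

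IGHV was thus called in full at the end of chromosome 14 both in 90m G1, in which 57.0% of genes near chromosome ends were called, and in G1, in which 14.8% were. TRBV lies 16.6 Mb from an end. Among all genes between 15 and 20 Mb from an end 24.2% were called in 90m G1 and 9.11% in G1, beside 86.1% and 0% of the TRBV segments. When the definition of an end was widened to 20 Mb, TRBV joined IGHV, the inner segments called in 90m G1 fell to 0 of 149, and the order in K562 turned to 42.2% of chromosome-end and 32.2% of inner segments.

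**Figure D4:**
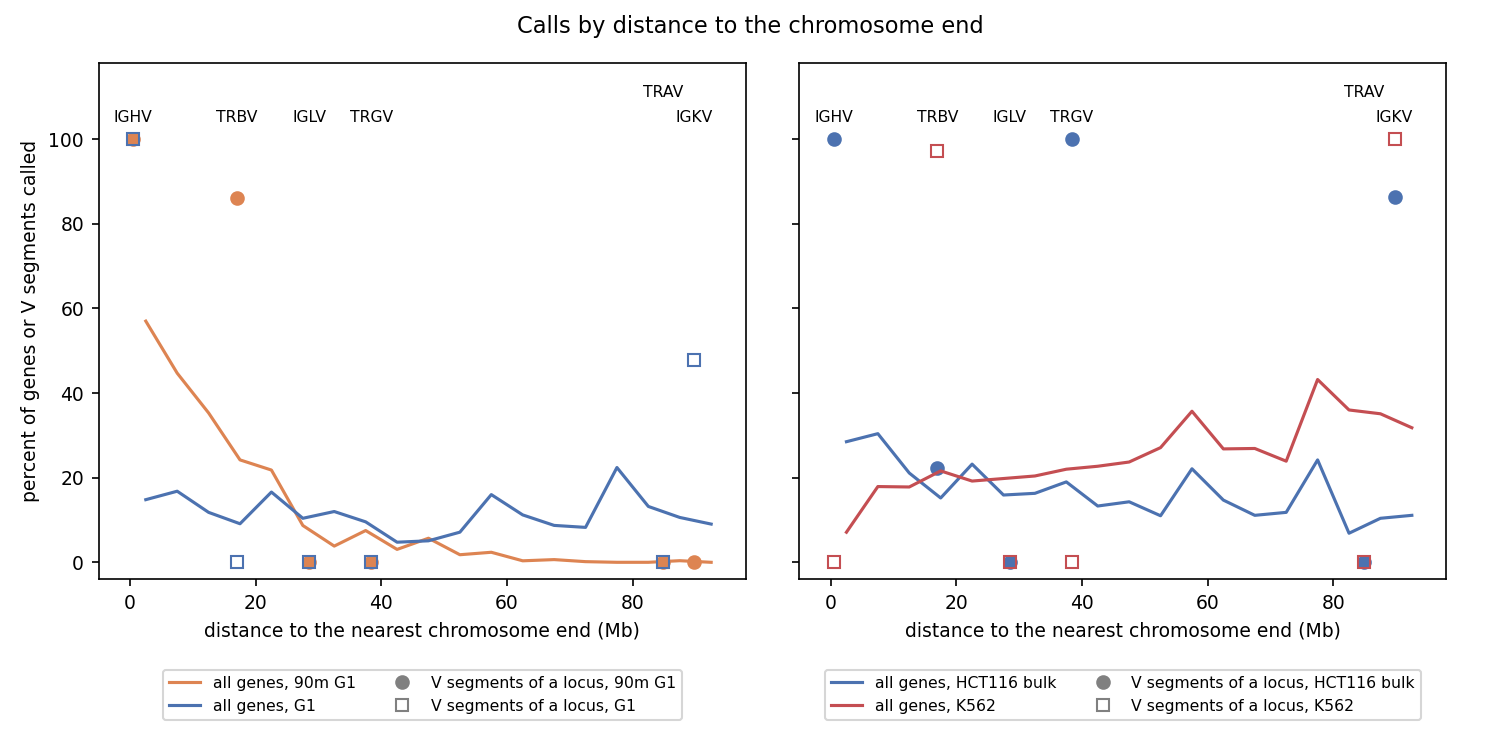
Percent called by distance to the nearest chromosome end in Mb, for all genes in bins of 5 Mb (lines) and for the V segments of each locus at their median distance (points), in 90m G1 and G1 (left) and in HCT116 bulk and K562 (right). The line of 90m G1 falls from 57.0% in the first bin, IGHV is at 100% in both left-hand lists, and TRBV is at 86.1% in 90m G1 and 0% in G1.

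Across the 5 stages 37 members (15.9%), all IGHV, were called at every stage, beside 2.72% of all genes, and 114 (49.1%) at none, beside 71.5% of all genes. Called in 90m G1 and not in 180m G1 were 10 members (4.31%), the IGHV segments up to IGHV3-13, below the 13.7% of all genes. Called in 180m G1 and not in 90m G1 were 17 (7.33%), of which 12 were IGKV and 5 were orphons, close to the 6.74% of all genes. Comparing 90m G1 with asynchronous G1, 31 members were called in 90m G1 alone of the pair, all of them TRBV, beside 13.9% of all genes. In the other direction there were 29, of which 21 were IGKV and 8 were orphons, beside 7.79% of all genes. As percentages of the members these were 13.4% and 12.5%, close to the share of all genes in the first case and above it in the second. Thus 31 of 36 TRBV segments were called in 90m G1 and none in G1. The reverse held for 21 of 22 distal IGKV segments and 8 of 11 IGHV orphons, but for no proximal IGKV segment. Few genes this far from chromosome ends were called in 90m G1. IGKV starts 89.2 Mb from the nearest end. Among all genes 85 to 90 Mb from an end, 0.379% were called in 90m G1 and 10.6% in G1. At 90 to 95 Mb these shares were 0% and 9.03%. At 30 to 35 Mb, where the orphons of chromosome 16 lie, they were 3.83% and 12.0%. IGHV was called in full in both lists. Because only the released cells had received nocodazole, stage and drug cannot be told apart in the comparison of 90m G1 with G1.

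The remaining genes of the loci were compared with their V segments. At the heavy chain locus the 27 D and 6 J segments were all called in HCT116 bulk, 90m G1, G1 and G2 and in no other list. Of the 9 heavy chain constant genes, 9 were called in HCT116 bulk and 90m G1, and 2, IGHM and IGHD, which encode the constant regions of the first antibody classes made, in G1 and G2. In S, 180m G1 and all 3 titrations the call held V segments and no D, J or constant gene. ADAM6, which lies between IGHV6-1 and IGHV1-2 and shares their window, was called in HCT116 bulk, 90m G1, G1, G2 and 50k. In the kappa locus the 5 J segments and IGKC, the constant gene, were called in K562 alone. Of 8 TRBJ segments all were called in K562, 90m G1, 180m G1 and S, and none in the other lists.

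V pseudogenes, which lie between the functional segments, followed them. Of 80 heavy chain pseudogenes within the locus, 80 were called in HCT116 bulk, 90m G1, G1, G2 and 50k, 71 to 77 in the other HCT116 lists and 0 in K562. Of 34 kappa pseudogenes 33 were called in K562 and 0 in 90m G1. The 36 lambda pseudogenes and the 9 of the alpha and delta loci were called in no list. TRDV segments, the 3 delta chain V segments within the alpha locus, and the 60 J segments of both loci were likewise called in none of the 10 lists.

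Genes that act on V segments or with their products were counted in the same way, and their shares stand beside those of all protein-coding genes, which ran from 4.87% in G2 to 17.4% in 90m G1. Among 11 genes of V(D)J recombination the count was 1 in HCT116 bulk and S (LIG4, a DNA ligase of end joining), in 90m G1 (NHEJ1, an end-joining factor) and in 1e6 (RAG2), and 0 in the other 6 lists. RAG1 had 17.8% of its length inside a region in 1e6 and 0% in the other lists. Of 13 B lineage genes, EBF1, a transcription factor of early B cells, was called in all 10 lists, with 68.6% to 100% of its length inside, and SYK, a kinase of receptor signalling, in HCT116 bulk. Of 14 T lineage genes, GATA3 was called in HCT116 bulk and 180m G1 and BCL11B in HCT116 bulk and 90m G1, both of them transcription factors of T cell development. Genes of the CD3 complex, CD3D, CD3E and CD3G, and the coreceptor CD4 were called in none of the 10 lists. In HCT116 bulk, where 11.5% of protein-coding genes were called, the shares were 9.09% for V(D)J recombination, 15.4% for the B lineage and 14.3% for the T lineage, each resting on 1 or 2 genes. None of these counts was tested.

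Base composition did not order the loci by their calls. GC content was 41.5% in IGHV, 40.3% in IGKV, 45.0% in IGLV, 38.3% in TRAV, 42.8% in TRBV and 42.3% in TRGV, beside 40.9% in the genome. TRAV, never called, had the lowest value and IGLV, also never called, the highest. Called sequence had a GC content of 44.0% in 90m G1, above that of the genome, and between 37.9% and 39.7% in the other lists.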

How the data were processed

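Lamin-B1 cTSA-seq was analysed from 10 region lists, 1 from K562 and 9 from HCT116 cells. Reads were aligned by the authors to hg19 with Bowtie2 2.3.2. After removal of duplicates they were counted in windows with bedtools 2.26.0 and normalized for library size, and z-scores of the log2 pull-down to input ratio were segmented by a Hidden Markov Model with 3 states. Where a condition had replicates, their calls were intersected. The deposited files give only chromosome, start and end of each region, on 100 kb windows. They hold no counts, so the depth behind a call is unknown.

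From these positions the percent of each gene inside the regions was computed with Python 3.11.15, pandas 2.3.3 and numpy 2.4.6. The gene annotation was GENCODE release 44 mapped to hg19, the sequence from hg19 (pysam 0.24.0), and alignments of kappa copies from Biopython 1.88 in local mode. A main locus was the longest run of segments of 1 family with gaps of at most 1 Mb. An end of a chromosome excluded the short-arm start of chromosomes 13, 14, 15, 21 and 22. Overlap counting was tested on simulated lists. With 1 list for each condition no test was possible.

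Named V segments are the first and last of each locus and those beside a change between called and uncalled, at most 6 for each locus. TRBV25-1 and TRBV27 and the constant genes named were chosen after their values were seen. The members and gene lists were chosen with earlier results of these data known. PRSS2, on the list of neighbours, had no entry and was left out. Sequences of V promoters came from hg19 because no V segment was in the RefSeq promoter table used.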

Additional observations from a re-analysis of the deposited data

How the results depend on the processing

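No paired analysis was possible because no list gives its replicates separately. Dropping regions under 200 kb or joining gaps of up to 100 kb kept all 10 counts within 1.5 times. Leaving out orphons, TRGV or genes with an uncertain mapping to hg19 did so too. Requiring any overlap, 80% or all of a gene could not change a count, because no segment was partly inside. Leaving out IGLV or TRAV could not change a count either, because neither had a called segment in any list. Percentages of base pairs in place of windows stayed within counting intervals. With the whole span of a locus in place of its segments all 60 percentages also stayed within them, but these intervals treat segments as independent, which they are not. The value went from 11.1% to 21.8% for TRBV in S and from 47.7% to 34.4% for IGKV in G1.

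With V pseudogenes added, 451 segments in all, the counts in the order K562, HCT116 bulk, 90m G1, 180m G1, G1, S, G2, 1e6, 200k and 50k were 133, 235, 167, 184, 180, 193, 191, 167, 208 and 183. Without IGHV they fell to 62 in HCT116 bulk, 31 in 90m G1, 48 in 180m G1, 29 in G1, 37 in S, 35 in G2, 33 in 1e6, 47 in 200k and 31 in 50k. Without IGKV they were 39 in K562, 71 in HCT116 bulk, 52 in S, 54 in G2 and 51 in 200k. Without TRBV they were 48 in K562, 47 in 90m G1 and 54 in 180m G1.

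An end within the distal 2.5% of a chromosome gave the same loci as 5 Mb. With 20 Mb, TRBV joined the chromosome-end loci, whose percentages called became 42.2 in K562, 66.3 in HCT116 bulk, 94.0 in 90m G1, 81.9 in 180m G1, 56.6 in G1, G2 and 50k, 55.4 in S, 44.6 in 1e6 and 50.6 in 200k. In the order K562, HCT116 bulk, 90m G1, 180m G1, G1, S, G2, 1e6, 200k and 50k, inner segments stood at 32.2, 36.2, 0, 11.4, 19.5, 22.1, 23.5, 22.1, 31.5 and 20.8.

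Over protein-coding genes alone the background was 11.7% in K562, 11.5% in HCT116 bulk, 17.4% in 90m G1, 5.67% in 180m G1, 5.2% in G1, 5.79% in S, 4.87% in G2, 5.22% in 1e6, 5.47% in 200k and 6.35% in 50k.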
